A study of Mus musculus with 56 samples.

Results

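Livers of mice at the end of a fast and the start of food were compared at opposite times of the light cycle. The 4 livers of the daytime-restricted feeding (DRF) group at zeitgeber time (ZT) 0, when the lights came on, were set against the 4 livers of the nighttime-restricted feeding (NRF) group at ZT12, when the lights went off. These 8 of the 56 liver libraries were chosen by their regimen and time labels alone, and the complete set held both regimens at 7 times with 4 libraries each. All mice were C57BL/6J females, aged 9 weeks, kept specific-pathogen-free on normal chow with 12 h of light a day and held on their regimen for 7 days. The labels name no allele and no drug in either group. By the study's description NRF mice had food in the dark and DRF mice in the light, so that regimen and time of day differ together between both groups. Whether a liver was taken just before or just after food was given is not stated in the sources used here. DRF and NRF below mean these 2 groups unless another time is named.

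The clock of a liver cell is a feedback loop of transcription. ARNTL (BMAL1) with CLOCK or NPAS2 drives genes that carry an E-box, among them the Per and Cry genes, whose proteins shut the drive off, and Nr1d1 and Nr1d2, whose proteins repress Arntl through ROR response elements (RORE). ROR proteins act on the same elements in the opposite direction, and the PAR bZIP factors DBP, TEF and HLF pass the rhythm on through D-boxes to metabolic genes. Light sets the master clock in the suprachiasmatic nucleus, whereas the time of food sets the liver clock to a large extent. Liver genes also answer directly to food, to hormones released on a daily schedule such as corticosterone, and to growth hormone, whose pulse pattern differs between the sexes and sets sex-biased liver genes.

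Levels are scaled counts, which are relative counts rebuilt from the deposited values. Their sums ran from 961653 to 1045380 in the 8 libraries. They are not corrected for gene length, so levels were compared between libraries and not between genes. Differences are DRF minus NRF on the log2(scaled count + 1) scale with their standard error (SE), which understates changes of genes with low levels, and adjusted p is that of limma after Benjamini-Hochberg correction over 19245 genes. Recovered counts, which reflect depth but are not reads, were 497.6 M ± 33.2 in DRF and 600.2 M ± 72.2 in NRF (mean ± SD, n = 4, exact two-sided permutation p = 0.0571, smallest possible 0.0286). The length index, which asks by Spearman's correlation over genes whether a library stood above the mean of all libraries in genes with long exons, averaged -0.123 in DRF and 0.0425 in NRF (exact permutation p = 0.0857). Without NRF replicate 2 its difference went from -0.166 to -0.213, with an exact p of 0.0286. The NRF livers varied more, with a median SD of 0.169 log2 per gene, the 2nd highest of 14 groups, against 0.112 in DRF, ranked 12. Replicates are separate samples in the labels. The SE and p of limma rest on a spread per gene shared over all 14 groups, and not on that of these 8 livers alone. They can therefore understate the uncertainty where the NRF livers varied more.

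At this matched point of the feeding cycle Arntl of the clock, enzymes of amino acid metabolism and Sult2a3 and Cyp2b10 of steroid and drug metabolism were higher in DRF. Lpin1, Egfr, Fabp5, the male-biased Mup7, Hsd3b5, Slco1a1 and Serpina1e and the female-biased Cyp3a44 and Cyp2a4 were lower. A total of 754 of 19245 genes (3.92%) were called at an adjusted p under 0.05, 363 (1.89%) higher in DRF and 391 (2.03%) lower, and 3283 had an unadjusted p under 0.05. The median log2 difference over all genes was 0.00016. Called differences were mostly small, 448 of them under 0.5 log2 in size, 252 from 0.5 to 1 and 54 above 1. The 95% confidence interval lay within -0.5 to 0.5 log2 for 14417 genes (74.9%), and for 8745 with a pseudocount of 0.1. The 4 and 4 values did not overlap for 1589 genes (8.26%), 558 of which were among the 754. In bulk liver, fewer cells of a type and less RNA per cell cannot be told apart.

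The count of called genes turned on the spread and on single livers. A fit of the 8 libraries alone, with no spread shared from the other groups, called 126 genes, and the deposited values called 411. Without NRF replicate 2 it rose to 1447, and it fell to 372 without NRF replicate 3, 379 without NRF replicate 4, and 472, 448 and 470 without DRF replicate 1, 3 and 4. Of 62 named genes that were called, 39 were called without each library in turn and 27 with the 8 libraries alone. These 27 were Arntl, Bhmt, Ccbe1, Ccne1, Cth, Cyp2a22, Cyp3a44, Ddc, Egfr, Eln, Gm5096, Gys2, Hsd3b5, Krt23, Lpin1, Mup7, Mup9, Mup15, Mup19, Ppp1r3c, Prex2, Slc38a2, Slco1a1, Smpd3, Sult2a3, Sult5a1 and Timp3. Among them Cyp2a22, Mup9 and Sult2a3 were not called with the deposited values.

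Groups of the same regimen and clock time taken a day apart give a scale for these counts, a check added after the data were seen. DRF livers at ZT24 differed from DRF livers at ZT0 in 869 genes (4.52%), and NRF livers at ZT24 from NRF livers at ZT0 in 2108 genes (11%). The 754 genes between the regimens at food onset were fewer than either of these counts. With DRF at ZT24 in place of DRF at ZT0, 2194 genes (11.4%) were called against NRF at ZT12, and 461 of the 754 kept their call while 30 changed sign. The length index averaged 0.174 in DRF at ZT24 and 0.18 in NRF at ZT24, against -0.182 in NRF at ZT0. The part of the length index in these counts was not tested.

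Of the 19 core clock genes 1 was called, Arntl (5.26% against 3.92% of all genes), and the median difference of the list was -0.13. Arntl, the transcription activator of the loop (chr7:113207465-113314126, plus strand, GRCm38), held 7.65, 6.29, 6.32 and 6.82 scaled counts in the 4 DRF livers and 1.41, 1.53, 1.07 and 1.49 in the 4 NRF livers. All DRF livers stood above all NRF livers. The DRF mean was 4.92 times the NRF mean, a log2 difference of 1.71 ± 0.19 (95% interval 1.34 to 2.08, adjusted p = 5.97e-08). In both regimens these were the lowest means of the day: over the other times DRF groups ranged from 10.4 ± 1.19 at ZT24 to 60.1 ± 7.41 at ZT16, and NRF groups from 4.87 ± 1.92 at ZT8 to 75.0 ± 4.13 at ZT24 (mean ± SD, n = 4). Arntl was thus at its lowest sampled mean in both groups, and that mean was higher in DRF. The time and depth of the trough between the sampled times were not tested. The difference was called under all alternatives tried, including each fit without 1 library.

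Npas2 and Clock, whose proteins pair with ARNTL, missed the threshold here but passed it under some alternatives. Npas2 held 0.413, 0.332, 0.434 and 0.486 in DRF and 0.0735, 0.0778, 0.0523 and 0.00950 in NRF, near its lowest means of the day in both. Its values did not overlap, yet on the log2(scaled count + 1) scale the difference was 0.43 ± 0.17 with an adjusted p of 0.155. It was called with a pseudocount of 0.1, with only the 8 libraries and with the deposited values. Clock gave 0.50 ± 0.15 (adjusted p = 0.0536), and was called with a mean of at least 1 as the filter, with the exon length correction, with the replicate block, and without DRF replicate 2 or NRF replicate 1. Ciart, a repressor of the loop, gave -0.34 ± 0.11 (adjusted p = 0.0689), and was called with a pseudocount of 5 and without NRF replicate 1 or 3. The count of called core clock genes thus rose to 3 without NRF replicate 1 and to 2 without DRF replicate 2 or NRF replicate 2 or 3.

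**Figure D1:**
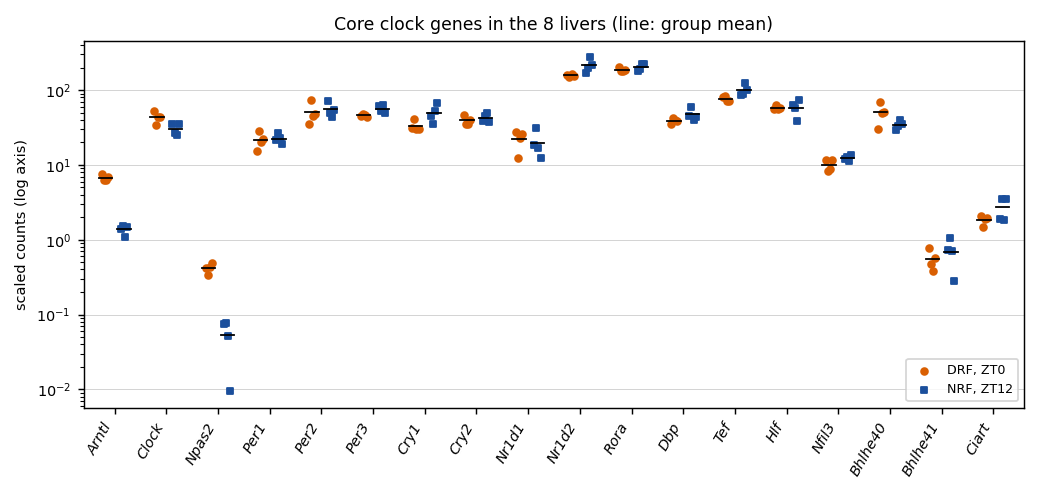
Scaled counts (log axis) of core clock genes in each of the 4 DRF livers at ZT0 and the 4 NRF livers at ZT12, with a line at each group mean. Arntl (means of 6.77 and 1.38) and Npas2 (0.416 and 0.0533) are higher in all DRF livers, while Per1, Nr1d1 and Rora overlap.

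The repressors named next were not called. Nr1d2 held 159.7, 151, 162 and 156 in DRF and 168, 198, 274 and 219 in NRF, without overlap, at -0.42 ± 0.16 (adjusted p = 0.147). Nr1d1 gave 0.18 ± 0.31 with a 95% interval of -0.43 to 0.80. Per1, the period gene that also responds to food and glucocorticoids, held 15.5, 28.9, 20.3 and 22.3 in DRF and 21.7, 26.7, 22.7 and 19.1 in NRF, which overlapped, and its interval was -0.61 to 0.46. Per2 gave -0.15 ± 0.26, Per3 -0.29 ± 0.19 and Cry1 -0.54 ± 0.19, none of them called. Per3 values did not overlap between the groups. Cry1 was called without NRF replicate 2 and in no other alternative. The intervals of 4 core clock genes lay within -0.5 to 0.5 log2.

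The factors that bind D-boxes were not called either. Dbp held 35.2, 42.1, 39.8 and 38.5 in DRF and 45.7, 59.9, 39.96 and 43.6 in NRF, a difference of -0.26 ± 0.21 (95% interval -0.69 to 0.16, adjusted p = 0.577), although 18.0% of its exon bases overlap a gene on the other strand. Tef gave -0.37 ± 0.18 (adjusted p = 0.278) without overlap. Hlf gave 0.028 ± 0.19 and Nfil3, the repressor that competes for the same sites, -0.28 ± 0.16. Of the ROR activators Rora gave -0.13 ± 0.075, and of the BHLHE repressors Bhlhe40 gave 0.48 ± 0.24 and Bhlhe41 -0.11 ± 0.10. With DRF at ZT24 as the day-fed group, 8 core clock genes were called, among them Arntl, Clock and Npas2 higher and Per1, Dbp, Bhlhe41 and Ciart lower. The count of clock genes that differ therefore turns on which of the DRF groups a day apart is used.

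Sequence upstream of the start site is shown for Arntl, the clock gene that was called, for Per1 and Ciart as E-box carrying repressors that were not, and for Bhmt, a called metabolic gene with a RORE match. The windows hold the 250 bases before the annotated start, 5′ to 3′ on the gene's strand, from RefSeq on GRCm38.p6, and capitals mark a motif match on either strand. The windows are Arntl at chr7:113207215-113207464, plus strand, Per1 at chr11:69098699-69098948, plus strand, Ciart at chr3:95882229-95882478, minus strand, and Bhmt at chr13:93637759-93638008, minus strand.
Arntl: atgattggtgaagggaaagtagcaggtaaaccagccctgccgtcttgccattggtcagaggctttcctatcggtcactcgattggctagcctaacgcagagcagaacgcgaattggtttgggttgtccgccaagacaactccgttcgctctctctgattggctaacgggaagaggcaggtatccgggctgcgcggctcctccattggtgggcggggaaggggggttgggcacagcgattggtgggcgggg
Per1: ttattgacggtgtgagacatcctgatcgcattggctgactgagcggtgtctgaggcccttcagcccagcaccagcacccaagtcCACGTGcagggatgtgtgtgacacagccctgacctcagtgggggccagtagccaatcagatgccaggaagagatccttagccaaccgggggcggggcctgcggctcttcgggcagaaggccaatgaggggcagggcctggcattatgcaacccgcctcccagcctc
Ciart: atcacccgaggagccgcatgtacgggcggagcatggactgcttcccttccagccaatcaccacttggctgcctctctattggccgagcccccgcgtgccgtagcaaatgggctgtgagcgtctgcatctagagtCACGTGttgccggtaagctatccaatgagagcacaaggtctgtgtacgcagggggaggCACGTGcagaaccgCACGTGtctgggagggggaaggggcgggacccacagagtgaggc
Bhmt: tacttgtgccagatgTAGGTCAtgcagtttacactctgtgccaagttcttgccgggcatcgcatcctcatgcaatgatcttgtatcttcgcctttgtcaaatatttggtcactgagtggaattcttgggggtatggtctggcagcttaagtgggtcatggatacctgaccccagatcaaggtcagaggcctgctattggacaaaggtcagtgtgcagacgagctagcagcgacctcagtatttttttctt
The Arntl window, like that of its second start, held none of the motifs searched. Bases after the start sites were not searched, so motifs there would not be seen.

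Of the 85 named genes 65 had such a window, 76 windows in all, out of 32851. The E-box CACGTG stood in 6.02% of all windows and in 10 of the 76. These 10 belonged to 9 named genes: Bhlhe41, Ciart, Cry1, Hspd1, Krt23, Per1, Ppp1r3c, Tef and Tuba8. Ciart held 3 copies and Per1 held 1 in the window shown, while the window of its second start held none of the motifs searched. The RORE core TAGGTCA stood in 2.23% of all windows and in 6 of the 76, of Bhmt, Itih4, Nfil3, Slc17a1, Slco1a1 and Tuba8. Of the longer forms that contain it, AATAGGTCA and a variant with a further base between the AA and the core matched no named gene. The D-box TTATGTAA stood in 0.819% of all windows and in 2 of the 76, of Per3 and Slc17a1. A match describes letters in the window and not binding.

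Clock output genes, which the loop and its D-box factors drive, were called in 2 of 15 cases (13.3% against 3.92% of all genes). The list median was -0.24. Ddc, which makes dopamine and serotonin from their precursors, was higher in DRF at 0.87 ± 0.14 (adjusted p = 1.21e-04). Its values were 50.2, 43.5, 54.1 and 47.8 in DRF and 25.9, 27.2, 22.5 and 30.2 in NRF. Nampt, the rate-limiting enzyme of NAD salvage, was lower at -0.41 ± 0.10 (adjusted p = 0.0160), and its call was lost without DRF replicate 1 or 3 or NRF replicate 4.

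The end of food offers a second matched pair, DRF at ZT12 and NRF at ZT0, that shares no library with the pair at onset. A gene that follows the time of day differs in opposite directions in both pairs, since DRF is sampled at ZT0 in one and at ZT12 in the other. A gene that follows the regimen differs in the same direction. The time-of-day part is the onset difference minus the end difference, and the regimen part their sum, both divided by 2 and tested by limma in the same fit. The time-of-day part is thus a mean of ZT0 minus ZT12 over both regimens, and its direction need not hold within each. At food end 2631 genes (13.7%) were called, the time-of-day part in 2779 (14.4%) and the regimen part in 506 (2.63%). Of the 754 genes called at onset, 470 had a time-of-day part alone, 113 a regimen part alone, 55 both and 116 neither. Without NRF replicate 4 at ZT12 the time-of-day count was 1810, and without DRF replicate 1 at ZT0 the regimen count was 279. These 3 contrasts share the onset libraries, so the split describes the 754 and is no separate evidence. Called at food end too were 198 genes (26.3% of the 754 and 7.53% of the 2631), 158 with the opposite sign and 40 with the same sign.

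The time-of-day count rests on NRF livers at ZT0. With NRF at ZT24 in their place, an alternative chosen after the data were seen, it fell to 810 genes, of which 664 were among the 2779, and 113 of the 2779 changed sign. The count at food end fell to 451 and the regimen part went to 411, with 218 of 506 kept and 15 changed in sign. The split of the 754 then became 298 with a time-of-day part alone, 163 with a regimen part alone, 40 with both and 253 with neither. Of 41 named genes with a time-of-day part 33 kept it, and Ciart, Cyp3a44, Cyp7b1, Egfr, Jun, Map1lc3a, Rora and Xbp1 lost it.

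**Figure D2:**
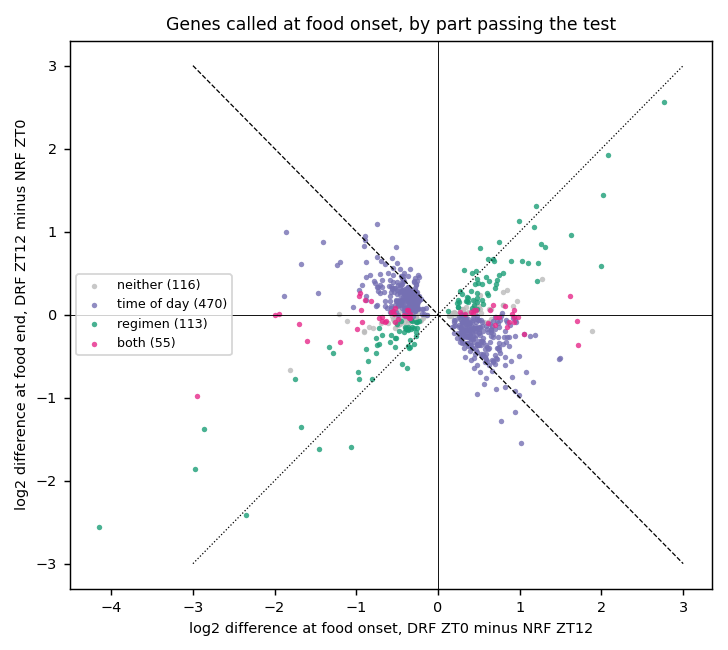
Log2 difference at food onset (DRF ZT0 minus NRF ZT12, x axis) against that at food end (DRF ZT12 minus NRF ZT0, y axis) for the 754 genes called at onset, coloured by which part passed the test, with dashed and dotted lines where both differences are equal in size. Genes with a time-of-day part (470) lie mostly toward the dashed diagonal of opposite signs, as Lpin1 does at -1.86 and 1.001, and those with a regimen part (113) toward the dotted diagonal, as Serpina1e does at -2.36 and -2.42.

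Lpin1, a phosphatidate phosphatase of fat synthesis and a coactivator of fatty acid oxidation genes, was among the larger time-of-day differences. It held 49.5, 63.7, 49.1 and 63.9 in DRF and 209, 173, 208 and 241 in NRF, without overlap (-1.86 ± 0.29, adjusted p = 7.86e-05). At food end the sign turned to 1.001 ± 0.29, and the time-of-day part was -1.43 ± 0.21 (adjusted p = 9.26e-06). Over the day NRF livers rose from 50.7 ± 3.79 at ZT8 to 208 ± 27.9 at ZT12, against 87.2 ± 23.96 at ZT20 and 56.5 ± 8.37 at ZT0 in DRF. Fabp5, a fatty acid binding protein, gave -1.89 ± 0.41 at onset and 0.23 ± 0.41 at food end. Its values were 18.5, 29.8, 30.3 and 35.7 in DRF and 206, 60.6, 125 and 79.8 in NRF.

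The 5 genes named for the smallest p of the time-of-day part were Timp3, Prex2, Eln, Ccbe1 and Slc25a32. Timp3, an inhibitor of matrix metalloproteinases, held 17.7, 14.5, 17.1 and 14.8 in DRF and 26.1, 30.2, 33.5 and 32.5 in NRF (-0.89 ± 0.08, adjusted p = 4.13e-10), although 21.3% of its exon bases overlap a gene on the other strand. At food end it gave 0.64 ± 0.08. Timp3 means stood at 14.9 ± 1.19 in NRF at ZT0 and 16.04 ± 1.60 in DRF at ZT0, and at 30.5 ± 3.28 and 23.8 ± 1.798 at ZT12, so that it was higher at lights off in both regimens. Eln, elastin, moved the other way, with 12.8, 9.50, 13.9 and 9.76 in DRF and 4.96, 6.10, 4.36 and 6.39 in NRF (0.95 ± 0.14 at onset, -1.17 ± 0.14 at food end). Prex2, an activator of RAC, was lower at -0.71 ± 0.082, Ccbe1, a secreted factor of lymph vessel growth, at -0.65 ± 0.092, and Slc25a32, the mitochondrial folate carrier, at -0.55 ± 0.081, with time-of-day parts of -0.60, -0.63 and -0.52. Apart from Timp3 (5.56% against 3.92% of all genes), none of the 18 genes of the extracellular matrix list was called. The median of this list was -0.00066.

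**Figure D3:**
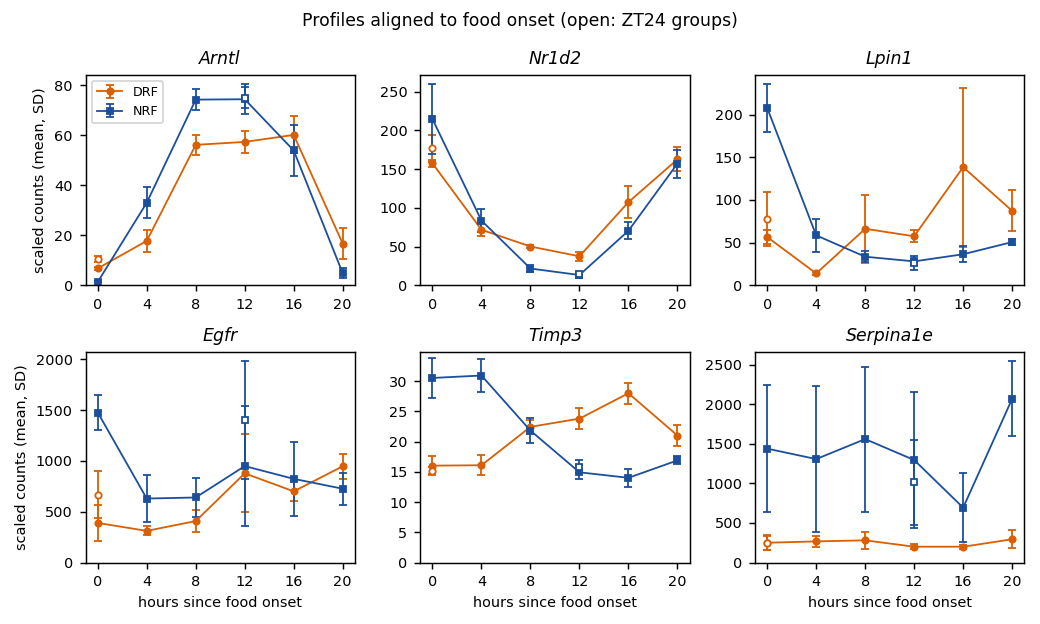
Scaled counts (mean ± SD, n = 4) of Arntl, Nr1d2, Lpin1, Egfr, Timp3 and Serpina1e against hours since food onset, 1 line per regimen, with open symbols for the groups at ZT24. The groups compared here stand at 0 h, where Arntl is at 6.77 in DRF and 1.38 in NRF and Lpin1 at 56.5 and 208.

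The 12 largest rises and 12 largest falls were taken among called protein-coding genes whose values did not overlap and whose higher mean was at least 5 scaled counts. Higher were Sult2a3, Cyp2b10, Arntl, Krt23, Smpd3, Cyp2a22, Gm5096, Bhmt, Cth, Cyp3a59, Clmp and Extl1. Lower were Mup7, Hsd3b5, Cyp3a44, Slco1a1, Serpina1e, Egfr, Fabp5, Lpin1, Mup9, Mup15, Cyp2a4 and Mup19. The calls of Clmp, Extl1, Mup9 and Mup15 were lost without at least 1 library, Extl1 and Mup9 without 5 and 6 of the 8. Since the genes were picked by these differences, their values describe the pick.

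**Figure D4:**
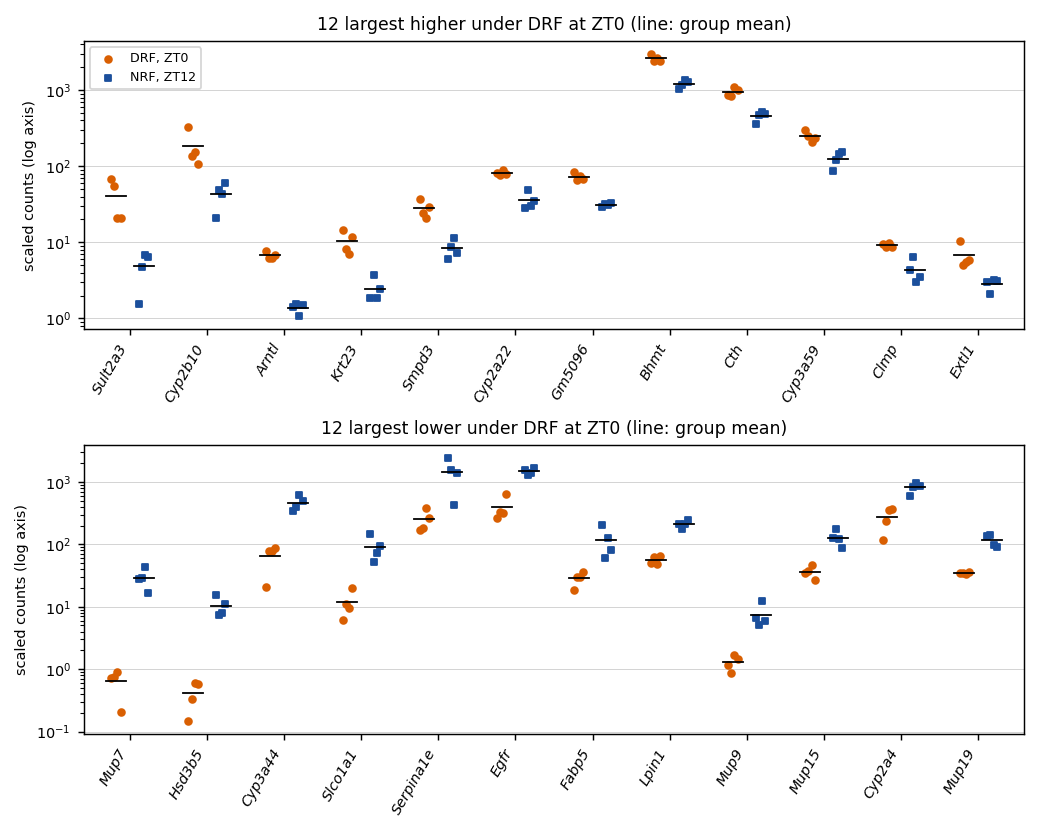
Scaled counts (log axis) in the 4 DRF livers at ZT0 and the 4 NRF livers at ZT12 for the 12 named genes with the largest rises (top) and the 12 with the largest falls (bottom), with a line at each group mean. The groups are farthest apart for Mup7, at means of 0.641 and 29.1.

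Krt23, a keratin of epithelia, held 14.6, 8.14, 7.00 and 11.8 in DRF and 1.86, 3.73, 1.84 and 2.44 in NRF (1.70 ± 0.23, adjusted p = 1.33e-05). Smpd3, a neutral sphingomyelinase, held 36.6, 24.7, 21.2 and 29.0 in DRF and 5.98, 8.74, 11.6 and 7.34 in NRF (1.62 ± 0.29, adjusted p = 3.98e-04). Both were separate between the groups in all 8 livers. Among the 5 genes with the smallest p of the regimen part, besides Cyp3a59, Serpina1e and Cyp3a25, Abca2, a lipid transporter, was lower at -0.34 ± 0.076 with a regimen part of -0.37 ± 0.054, and lost its call without NRF replicate 3. Slc17a1, a phosphate and urate carrier, was higher at 0.53 ± 0.099 with a regimen part of 0.45 ± 0.07.

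The growth hormone axis list had 1 gene higher and 6 lower of 22 tested (31.8% against 3.92%), with a median of -0.31. With the deposited values 4 were lower. The gene lists were chosen with earlier results of these data known, so the share describes the list and is no test of it. Growth hormone acts through its receptor and STAT5B on Igf1 and on sex-biased genes of secretion and steroid metabolism. Ghr, the receptor, held 389, 391, 433 and 406 in DRF and 468, 511, 455 and 604 in NRF, lower at -0.32 ± 0.078 (adjusted p = 0.0107). Igf1, the growth factor it induces, held 699, 795, 675 and 797 in DRF and 1184, 967, 1119 and 1151 in NRF (-0.58 ± 0.16, adjusted p = 0.0243). The other 4 lower genes were Hsd3b5, Mup3, Mup7 and Serpina1e, and Sult2a3 was the 1 higher.

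Among the lower genes were some known to be higher in males, though all mice here were females. Hsd3b5, a male-biased steroid dehydrogenase, held 0.149, 0.332, 0.598 and 0.571 in DRF and 15.3, 7.24, 8.03 and 10.9 in NRF (-2.97 ± 0.61, adjusted p = 0.00181). Mup7, a major urinary protein, held 0.710, 0.744, 0.901 and 0.207 in DRF and 28.3, 28.9, 42.5 and 16.9 in NRF (-4.15 ± 0.77, adjusted p = 6.02e-04). All NRF livers stood above all DRF livers for both. Over the family, picked by symbol after the values were seen, 6 of 20 tested Mup genes were lower and none higher. Of all genes 2.03% were lower. The median of the family was -1.11. Mup genes are near-identical copies, so that the split of reads between members is uncertain, as it is for the Serpina1 and Cyp3a genes. The NRF means varied widely between times of day, from 3.73 ± 2.59 at ZT4 to 29.1 ± 10.5 at ZT12 for Mup7.

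Serpina1e, an alpha-1-antitrypsin gene (chr12:103946931-103958975, minus strand), followed the regimen. It held 169.8, 184, 379.8 and 267 in DRF and 2385, 1577, 428 and 1371 in NRF, without overlap (-2.36 ± 0.48, adjusted p = 0.00187), and -2.42 ± 0.48 at food end. Its regimen part was -2.39 ± 0.34 (adjusted p = 5.16e-05), and DRF means lay between 200.3 ± 29.0 and 294 ± 111 at all 7 times against 694 ± 433 to 2070.5 ± 476 in NRF. Of 5 Serpina1 genes 2 were lower, against 2.03% of all genes. Slco1a1, a male-biased uptake transporter for bile acids and steroids, held 6.14, 11.1, 9.65 and 19.9 in DRF and 147, 51.3, 71.7 and 93.8 in NRF (-2.86 ± 0.51, adjusted p = 3.98e-04).

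Sult2a3 was higher, whereas the female-biased cytochromes Cyp2a4 and Cyp3a44 were lower. Sult2a3, a sulfotransferase of bile acids and steroids, held 68.1, 54.6, 20.6 and 21.1 in DRF and 1.54, 4.79, 6.88 and 6.45 in NRF, higher at 2.76 ± 0.66 (adjusted p = 0.00907). Cyp2a4, a female-biased steroid hydroxylase, was lower at -1.70 ± 0.25 (adjusted p = 3e-05), with 116, 239, 354 and 372 in DRF and 604, 819.5, 972 and 869.6 in NRF. Cyp3a44, also female-biased, was lower at -2.95 ± 0.47, and its values were 21.1, 76.8, 78.7 and 85.9 in DRF and 343, 399, 628 and 494 in NRF. DRF replicate 1 stood apart from the other DRF livers for Cyp3a44. In the same family Cyp3a59 was higher at 0.996 ± 0.18 and Cyp3a25 at 0.51 ± 0.14, with regimen parts of 1.06 ± 0.13 and 0.65 ± 0.10, and the call of Cyp3a25 was lost without DRF replicate 1 or 2 or NRF replicate 1 or 2.

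Of 25 drug metabolism genes 3 were higher and 3 lower (24% against 3.92% of all genes). The median was -0.096, and 1 was called with only the 8 libraries. Cyp2b10, the classical target of the nuclear receptor CAR, held 328, 138, 154 and 108 in DRF and 21.2, 49.1, 43.3 and 60.5 in NRF, higher at 1.999 ± 0.37 (adjusted p = 6.02e-04). Cyp2c29 was higher at 0.60 ± 0.12. Gsta1, a glutathione transferase, was higher at 2.01 ± 0.61 (adjusted p = 0.0474), but that call was lost in every fit without 1 library except NRF replicate 2. Ugt2b5, a glucuronosyltransferase, was lower at -0.53 ± 0.11 and Sult5a1 at -0.91 ± 0.23, the latter not without DRF replicate 1 or NRF replicate 4.

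In the nitrogen and amino acid list 7 genes were higher and 1 lower of 26 tested (30.8% against 3.92% of all genes). The median was 0.23. Without DRF replicate 1 or 3 or NRF replicate 1 or 3 the calls fell to 5, with only the 8 libraries to 4 and with the deposited values to 3. Bhmt, Cth, Hal and Slc38a2 kept theirs without each library in turn, so that those lost in these fits were among Asl, Oat, Mat1a and Gnmt. With only the 8 libraries and with the deposited values Hal lost its call too. In sulfur amino acid metabolism Bhmt, which makes methionine from homocysteine, held 2999, 2386, 2635 and 2428 in DRF and 1026, 1164, 1356 and 1261 in NRF (1.12 ± 0.21, adjusted p = 7.06e-04), a gene too deeply counted for its rebuilt scale to be checked. Cth, which makes cysteine, held 867, 849, 1093 and 994 in DRF and 363, 472, 519 and 490.2 in NRF (1.05 ± 0.19, adjusted p = 6.02e-04). For neither gene did the groups overlap. Mat1a, which makes the methyl donor S-adenosylmethionine, gave 0.41 ± 0.12 and Gnmt, which uses it, 0.62 ± 0.19.

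In the urea cycle Asl held 693, 545, 664 and 565 in DRF and 324, 344, 391 and 507 in NRF (0.67 ± 0.16, adjusted p = 0.00753). Oat, which breaks down ornithine, gave 0.75 ± 0.19 and Hal, which breaks down histidine, 0.76 ± 0.16 (adjusted p = 0.00174). Hal held 486, 398, 411 and 409 in DRF and 174, 261, 292 and 295 in NRF. Slc38a2, an amino acid uptake carrier induced by amino acid lack, was the gene that was lower, at -0.88 ± 0.14 (adjusted p = 5.84e-05). Bhmt, Cth, Hal and Slc38a2 had a time-of-day part, at 0.69, 0.64, 0.42 and -0.55.

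**Figure D5:**
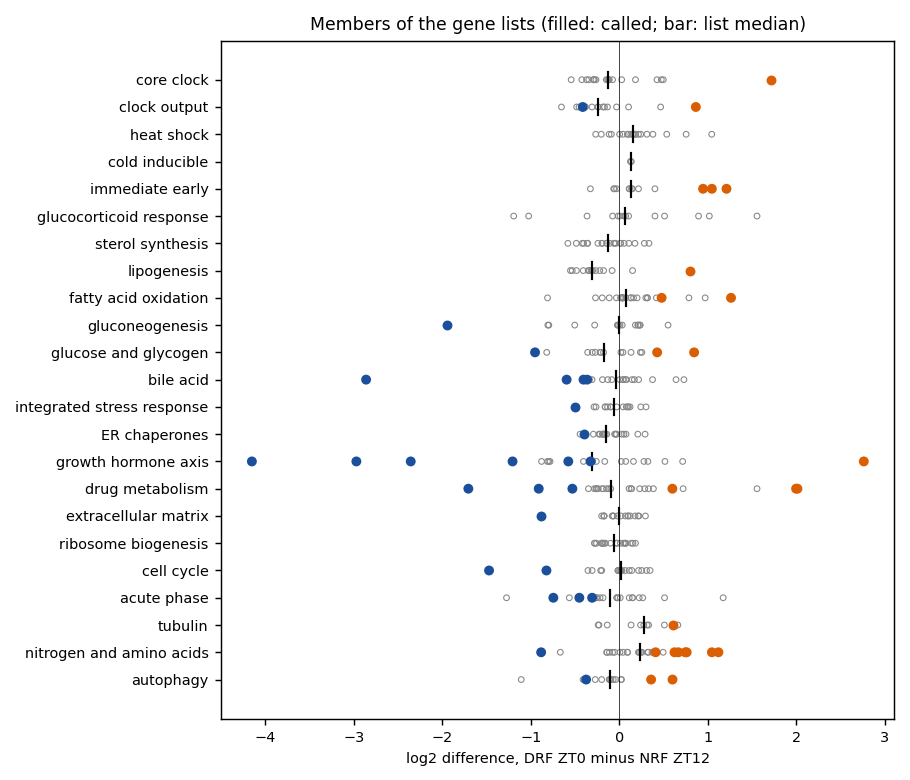
Log2 difference (DRF ZT0 minus NRF ZT12, x axis) of each tested gene in the gene lists, 1 row per list, with filled symbols for called genes and a bar at the list median. Called genes of the nitrogen and amino acid list lie mostly above 0 (7 of 8) and those of the growth hormone list mostly below (6 of 7). The lists were chosen with earlier results of these data known.

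Glucose and glycogen genes gave 2 higher and 1 lower of 15 (20% against 3.92% of all genes), with a median of -0.18. Gys2, the liver glycogen synthase, was lower, with 546, 559.6, 506 and 572 in DRF and 792, 1170.4, 1223 and 1093 in NRF (-0.95 ± 0.11, adjusted p = 4.05e-07). Ppp1r3c, which brings a phosphatase to glycogen, was higher at 0.85 ± 0.18 (adjusted p = 0.00359). Gys2 and Ppp1r3c had time-of-day parts of -0.61 and 0.46.

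Of 16 gluconeogenesis genes 1 was called (6.25% against 3.92% of all genes). Ppp1r3g, a glycogen-targeting phosphatase subunit that fasting raises, held 0.00807, 0.0285, 0.0266 and 1.62 in DRF and 0.0212, 14.2, 6.89 and 4.08 in NRF (-1.95 ± 0.34, adjusted p = 2.96e-04). DRF replicate 4 lay above the other DRF livers, and NRF replicate 1 lay within the DRF range. The call of Ppp1r3g was lost with only the 8 libraries and with the deposited values. Igfbp1, which fasting raises and insulin lowers, held 24.8, 6.47, 21.0 and 28.5 in DRF and 7.73, 53.3, 37.4 and 61.3 in NRF, with NRF replicate 1 lowest, at -0.80 ± 0.61 (adjusted p = 0.550). NRF replicate 1 was lowest of its group for Chac1 too, a glutathione-degrading enzyme of the stress response, which held 0.718, 0.261, 0.170 and 0.406 in DRF and 0.536, 1.10, 1.14 and 1.07 in NRF (-0.50 ± 0.14, adjusted p = 0.0248) and lost its call without 5 of the 8 libraries.

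Lpin1 and Fabp5, above, were among the largest falls, and the lists of fat metabolism held few calls. Of 15 lipogenesis genes 1 was called (6.67% against 3.92% of all genes), Insig2, an inhibitor of sterol regulatory element-binding proteins, at 0.80 ± 0.19 (adjusted p = 0.0109, not called without DRF replicate 1), and the list median was -0.30. None of 22 sterol synthesis genes was called by limma, 4 had an unadjusted p under 0.05, and the median was -0.12. The same list gave 4 lower genes with DRF at ZT24. Of 25 fatty acid oxidation genes 2 were higher (8% against 1.89% of all genes), with a median of 0.075. They were Acadm, a mitochondrial acyl-CoA dehydrogenase, at 0.48 ± 0.12 (adjusted p = 0.0117) and Cyp4a14, a target of PPARα, at 1.26 ± 0.35 (adjusted p = 0.0299). Both calls depended on single livers, being lost without 3 and 6 of the 8. Cyp4a14 held 916, 707, 414 and 859 in DRF and 604, 237, 294 and 163 in NRF.

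Of 22 bile acid genes 4 were lower and none higher (18.2% against 3.92% called of all genes). The median was -0.039, and 1 was called with only the 8 libraries. Slco1a1, above, was 1 of them. Cyp7b1, the oxysterol hydroxylase of the alternative pathway and a male-biased gene, was lower at -0.59 ± 0.12 (adjusted p = 0.00231), with 266, 259.9, 292 and 259 in DRF and 419, 330.4, 438 and 450.4 in NRF. Abcc2, an export pump of the canaliculus, was lower at -0.36 ± 0.077 and Cyp27a1, the mitochondrial sterol hydroxylase, at -0.40 ± 0.11, the latter not without 4 of the 8 libraries. Cyp7a1, the rate-limiting enzyme of bile acid synthesis, held 123, 144, 189 and 143 in DRF and 329, 159, 139 and 342 in NRF (-0.59 ± 0.37, adjusted p = 0.440).

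Immediate early genes, which signals switch on within minutes, were higher in 3 of 13 tested cases (23.1% against 1.89% of all genes). The median was 0.14. Nr4a1, an orphan nuclear receptor, held 1.13, 2.27, 2.90 and 5.10 in DRF and 0.502, 1.06, 0.812 and 0.623 in NRF (1.05 ± 0.17, adjusted p = 7.86e-05). All NRF livers stood below all DRF livers for Nr4a1. Jun, a subunit of AP-1, gave 0.95 ± 0.23 (adjusted p = 0.0130) and Atf3, a stress-induced repressor, 1.21 ± 0.32 (adjusted p = 0.0205). Atf3 lost its call without DRF replicate 2, 3 or 4 or NRF replicate 4 and Jun without DRF replicate 3 or NRF replicate 4, so that Nr4a1 alone was called without DRF replicate 3 or NRF replicate 4, and no gene of the list with only the 8 libraries. With DRF at ZT24 in place of ZT0 the sign turned in all 3, to -0.24, -0.74 and -0.59 (adjusted p = 0.371, 0.0328 and 0.243). Their direction at food onset thus differs between DRF livers a day apart. Fosb and Egr2 were below the minimum level for a test.

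None of the 21 heat shock genes, 14 glucocorticoid response genes, 20 ribosome biogenesis genes or 2 cold-inducible genes was called by limma, with medians of 0.15, 0.064, -0.063 and 0.13. An unadjusted p under 0.05 was found for 2, 6, 4 and 0 of them. The 6 of the glucocorticoid list differed in sign: Fkbp5, a chaperone of the receptor, gave -1.02 ± 0.43, Klf9, a transcription factor, -0.36 ± 0.15, Zbtb16 -1.19 ± 0.42, the metallothioneins Mt1 and Mt2 0.90 ± 0.44 and 1.02 ± 0.49, and Sult1e1, a sulfotransferase of estrogens, 1.56 ± 0.73. Fkbp5 held 41.2, 46.7, 35.0 and 42.4 in DRF and 97.3, 67.9, 86.8 and 89.2 in NRF (adjusted p = 0.192). Without DRF replicate 1, 2 heat shock genes were called higher, and with DRF at ZT24 6 glucocorticoid response genes were called, 2 higher and 4 lower. Hspd1, a mitochondrial chaperone, gave 0.13 ± 0.094 and Tat, a tyrosine-degrading enzyme that glucocorticoids induce, 0.0089 ± 0.24. For 18 of the 20 ribosome biogenesis genes the interval lay within -0.5 to 0.5 log2. Rbm3, the cold-inducible RNA-binding protein, gave 0.13 ± 0.14 here and -0.51 with DRF at ZT24 (adjusted p = 0.0134). Of 16 integrated stress response genes Chac1 alone was called (6.25% against 3.92% of all genes). Of 20 endoplasmic reticulum chaperone genes 1 was called (5% against 3.92% of all genes). Xbp1, the transcription factor of the unfolded protein response, was lower at -0.40 ± 0.10 (adjusted p = 0.0202), but not without 4 of the 8 libraries.

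Egfr and both called genes of the cell cycle list were lower in DRF. Egfr, the receptor of epidermal growth factor (chr11:16752203-16918158, plus strand), held 268, 332, 313 and 647 in DRF and 1535, 1303, 1376 and 1696 in NRF, without overlap (-2.001 ± 0.35, adjusted p = 3.02e-04). DRF replicate 4 lay apart from the other DRF livers. Ccnd1, cyclin D1 of the G1 phase, was lower at -1.47 ± 0.27 (adjusted p = 6.12e-04), with 14.2, 27.3, 25.8 and 39.6 in DRF and 58.2, 75.1, 102 and 58.3 in NRF and 23.4% of its exon bases under a gene on the other strand. Ccne1, cyclin E1, was lower at -0.82 ± 0.094 (adjusted p = 1.88e-07). They were the 2 called of 19 cell cycle genes (10.5% against 3.92% of all genes), whose median was 0.016.

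Acute phase genes, with a median of -0.10, were lower in 3 of 22 cases (13.6% against 2.03% of all genes). This became 1 without NRF replicate 4, 0 with only the 8 libraries and 6 with the exon length correction. Apcs, serum amyloid P, held 7.40, 9.18, 9.32 and 11.7 in DRF and 20.4, 12.5, 16.9 and 16.2 in NRF (-0.74 ± 0.15, adjusted p = 0.00142). Steap4, a metalloreductase, was lower at -0.45 ± 0.10 and Itih4, an inter-alpha-trypsin inhibitor chain, at -0.31 ± 0.088. The call of Steap4 was lost without NRF replicate 3 or 4 and that of Itih4 without 5 of the 8 libraries. Of 14 autophagy genes 3 were called (21.4% against 3.92% of all genes). Sqstm1, a cargo receptor, was higher at 0.36 ± 0.079 and Map1lc3a, of the phagophore membrane, at 0.60 ± 0.16, while Atg14 was lower at -0.37 ± 0.098. Only Sqstm1 kept its call in each fit without 1 library. No autophagy gene was called with only the 8 libraries or with the deposited values, and 17.3% of Sqstm1 exon bases overlap a gene on the other strand. Of 11 tubulin genes 1 was called (9.09% against 3.92% of all genes), and the list median was 0.28. Tuba8 was higher at 0.61 ± 0.16 (adjusted p = 0.0242), but not without 5 of the 8 libraries.

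Markers of hepatocytes were high in all 8 livers and none of 6 was called by limma (1, Hnf4a, at an unadjusted p under 0.05), with 110685 to 120803 summed scaled counts in DRF and 103798 to 135943 in NRF. Of 6 erythroid markers 4 were higher in DRF (66.7% against 1.89% of all genes), Hba-a1 (1.22 ± 0.31), Hba-a2 (1.27 ± 0.36), Hbb-bt (1.17 ± 0.33) and Alas2 (0.69 ± 0.18). Sums over the erythroid markers were 714.7 to 2042 in DRF and 500.7 to 870.2 in NRF (exact permutation p = 0.0857). The part of blood RNA in other differences was not tested, and the erythroid sum overlapped between the groups. Of the stellate cell markers 1 of 6 (16.7% against 2.03% of all genes), Reln, was lower, with sums of 760.3 to 894.7 and 861.5 to 965.2. None of the markers of Kupffer cells (617.5 to 725.1 in DRF and 689.6 to 762.0 in NRF), sinusoidal endothelium (309.4 to 371.7 and 367.8 to 374.2) or cholangiocytes (25.7 to 40.6 and 24.6 to 28.9) was called by limma, with 0, 2 and 1 of 6 at an unadjusted p under 0.05. Those of lymphocytes (1.44 to 1.89 and 1.41 to 2.33), neutrophils (0.675 to 1.23 and 0.618 to 1.32), adipocytes (0.622 to 1.196 and 0.189 to 1.24) and acinar pancreas (2.17 to 3.08 and 3.32 to 3.63) were low, and none of their tested members was called by limma, with 1, Cela1 of the pancreas, at an unadjusted p under 0.05. The pancreas sums did not overlap between the groups. Adipoq, Plin1, Retn, Cfd and Lep of adipocytes, Prss1, Prss2, Ctrb1 and Pnlip of the pancreas, Ly6g, Mmp8 and Camp of neutrophils and Cd8a of lymphocytes were below the level tested.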

How the data were processed

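RNA from 56 livers was sequenced after ribosomal RNA depletion with strand-specific libraries (the molecule label reads polyA RNA). Submitters' processing notes name CASAVA 1.8, featureCounts 1.5.0-p3 and builds mm10 and GRCm38.p6, and the aligner is not given in the sources used here. The authors deposited 1 gene table labelled TPM, but its values were not linear in abundance and were recorded as a score: each value times exon length (GENCODE, GRCm38) was the logarithm of 1 plus a library constant times a whole number. Scaled counts were rebuilt by inverting that curve for 25356 of 25415 genes. Recovered counts, 471.6 to 688.0 M in the 8 libraries, are not reads, so no counting intervals are given. The test on a linear scale was chosen for either case, and no count model was run.

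Groups were taken from the labels. Per gene, limma 3.58.1 in R 4.3.3 (group means over 14 groups of 4, 42 residual degrees of freedom, moderated with a trend, two-sided, Benjamini-Hochberg, called at adjusted p under 0.05) was fitted on log2(scaled count + 1) for 19245 genes with a mean of at least 0.1. Scripts were tested on simulated data. The gene lists and the libraries compared were chosen with earlier results of these data known. Named were the 12 higher and 12 lower called protein-coding genes with the largest differences, no overlap and a higher mean of at least 5, all core clock genes, up to 4 called members of each other list (or the member with the highest mean scaled count, not corrected for length, where none was called), and the 5 genes with the smallest p of the time-of-day and of the regimen part. Others were named after their values were seen. Same-numbered replicates of both groups correlated at -0.059, -0.116, -0.018 and -0.031 in their deviations from the group means, so the numbers were not taken as pairs. Promoter windows (65 of 85 named genes) were searched on both strands with Python 3.11.15 for the motifs given and for TTACGTAA (D-box), TGACGTCA (CRE) and the heat shock, serum response and glucocorticoid response elements. Alternatives changed the pseudocount, filter, scaling, libraries and scale of the values, corrected for exon length, added a replicate block, left out each library and put a ZT24 group in place of a ZT0 group. Some list members count in the totals but are not reported here by name.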

Additional observations from a re-analysis of the deposited data

Results flagged for a closer look

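A liver stood apart from the other 3 of its group, by Dixon's 95% criterion, in 8 of 170 groups of 4 values tested among the named genes, where chance gives about 1 in 20. In DRF replicate 1 Extl1 was 10.6, Hal 486 and Cyp3a44 21.1 scaled counts. In DRF replicate 2 Cry1 was 41.4, and in DRF replicate 4 Egfr was 647 and Ppp1r3g 1.62. In NRF replicate 1 Chac1 was 0.536, and in NRF replicate 2 Extl1 was 2.11. The calls of Extl1 and Chac1 were lost without 5 of the 8 libraries each, while those of Hal, Cyp3a44, Egfr and Ppp1r3g were made without each library in turn. Those of Hal and Ppp1r3g were lost with only the 8 libraries and with the deposited values.

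The difference between the regimens differed between food onset and food end for 2779 genes, by limma's test of the time-of-day part, and for 810 with NRF at ZT24 in place of ZT0. The part is a mean over both regimens, so its sign need not hold within each. Against NRF at ZT12, Arntl gave 1.71 in DRF at ZT0 and 4.62 in DRF at ZT12, so within DRF it was higher at ZT12. Dbp gave -0.26 and -3.79, so within DRF it was higher at ZT0. Timp3 gave -0.89 and -0.34, and kept within DRF the sign of its part. Of the named genes 41 were among the 2779. The time-of-day part in log2 was above 0, toward higher levels at ZT0, for 15: Eln (1.06), Arntl (1.04), Clmp (0.98), Krt23 (0.89), Gm5096 (0.72), Bhmt (0.69), Cth (0.64), Nr4a1 (0.64), Npas2 (0.60), Jun (0.51), Ddc (0.48), Ppp1r3c (0.46), Hal (0.42), Map1lc3a (0.39) and Sqstm1 (0.30). It was below 0, toward higher levels at ZT12, for 26: Lpin1 (-1.43), Fabp5 (-1.06), Egfr (-0.996), Cyp3a44 (-0.98), Ppp1r3g (-0.98), Nr1d2 (-0.94), Ccnd1 (-0.86), Dbp (-0.80), Cyp2a4 (-0.80), Timp3 (-0.76), Per1 (-0.66), Tef (-0.64), Ccbe1 (-0.63), Gys2 (-0.61), Prex2 (-0.60), Per3 (-0.60), Slc38a2 (-0.55), Slc25a32 (-0.52), Ccne1 (-0.50), Steap4 (-0.46), Nampt (-0.45), Cyp7b1 (-0.38), Abcc2 (-0.35), Ciart (-0.23), Xbp1 (-0.22) and Rora (-0.16). Ciart, Cyp3a44, Cyp7b1, Egfr, Jun, Map1lc3a, Rora and Xbp1 were not called with NRF at ZT24. Arntl, Npas2, Per1, Per3, Nr1d2, Dbp and Tef, of the clock, kept the call.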

How the results depend on the processing

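The count of 754 called genes stayed within 1.5 times under both other pseudocounts, both other filters, median-of-ratios scaling and the exon length correction (681 to 775). With only the compared libraries it was 126 (60 higher, 66 lower). Time-of-day and regimen genes, whose contrasts need the libraries at food end as well, were 1651 and 203. The deposited values gave 411 (209 and 202), 4248 and 973. DRF at ZT24 in place of ZT0 gave 2194 (897 and 1297) and 2766 regimen genes. It turned Nr4a1 to -0.24, Jun to -0.74 and Atf3 to -0.59. Rbm3, not called with DRF at ZT0, went to -0.51 and was called with DRF at ZT24. The cause was not tested. NRF at ZT24 in place of ZT0, chosen after seeing the data, gave 810 time-of-day genes. Genes bounded within 0.5 log2 went from 14417 to 8745 with a pseudocount of 0.1 and 9594 with a mean of at least 1, where fewer genes were tested. Leaving out 1 library gave 372 to 1447 called genes (171 to 777 higher, 201 to 670 lower), 1810 to 3522 time-of-day and 279 to 632 regimen genes, 13184 to 14101 bounded genes and a length index difference of -0.213 to -0.140. With the replicate block, although same-numbered samples are not pairs, 737 genes were called, 707 of them among the 754. Apart from DRF at ZT24, no alternative turned the sign of a called named gene. The recovered counts are not reads, so what depth limits here cannot be given.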
